A study of Homo sapiens with 4 samples.

Results

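The 37 genes described here are a module of glycolysis and of the response to low oxygen. It comprises 17 glycolytic enzymes, 8 transporters and regulatory kinases, 9 hypoxia-response genes and 3 subunits of hypoxia-inducible factor (HIF). The genes were chosen because ENO1, which encodes the glycolytic enzyme enolase 1, was higher in ganglioids treated with PP121 than in control ganglioids. The comparison of PP121 with control is therefore a description. Fits of it are given for the module with nothing read from them, and comparisons that the choice did not use were tested. All 37 symbols were found among the 36601 features of the deposited matrices, and all 37 passed the filter on low counts in the fits to all nuclei, neurons and progenitors.

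The genes were measured by single-nucleus RNA sequencing (snRNA-seq) of enteric ganglioids, which are free-floating aggregates of enteric neurons and precursors, here made from H9, a widely used human embryonic stem cell line. Each of the 4 samples held pooled ganglioids of 1 independent differentiation grown in suspension. The 2 control samples are labelled as control, and the 2 PP121 samples received 2 µM PP121, a small molecule that blocks receptor tyrosine kinases such as the PDGF receptors, from day 15 to day 20 of differentiation. Both samples numbered replicate 1 carry the day 42 in the deposited annotation and both numbered replicate 2 carry day 38, whereas the study names a single day that is neither, so what these dates mark is not known here. For both control samples a column of the annotation names another control library than the label does, and the labels were followed here. All 4 samples came from 1 cell line, and no vehicle is named for the control.

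Glycolysis breaks glucose down to pyruvate and yields ATP without oxygen, and lactate dehydrogenase then turns pyruvate into lactate, which monocarboxylate transporters carry out of the cell. When oxygen is low, prolyl hydroxylases of the EGLN family no longer mark HIF alpha subunits for degradation, and HIF, as a pair of an alpha subunit and ARNT, binds short DNA motifs and raises the transcription of glycolytic enzymes, glucose transporters and genes such as CA9 and ADM. Control of HIF alpha is largely at the level of the protein, so its activity is commonly read from its target genes rather than from HIF1A mRNA. Neurons and their progenitors draw on glycolysis to different degrees, and the enolase and hexokinase families have isoforms that differ between cell types.

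The 4 libraries held 4283, 3030, 4587 and 2912 nuclei annotated by the authors (control replicates 1 and 2, then PP121 replicates 1 and 2, the order used throughout), with 23348045 to 34123759 UMIs in all. The members took 65476 to 93286 of these UMIs per sample. Levels are given as CPM, the UMIs of a gene scaled to 1000000 UMIs of the same class in the same sample, and since a class is a sum over nuclei, fewer nuclei expressing a gene and less RNA per nucleus cannot be told apart. Neuron markers summed to 912, 939, 1031 and 1153 CPM in nuclei annotated as enteric neurons and to 325, 274, 375 and 313 CPM in the progenitors, whereas progenitor and glial markers stood at 37.7, 36.3, 43.3 and 39.3 CPM and 86.2, 73.9, 74.0 and 79.6 CPM. Endothelial markers summed to 7.44 to 9.70 CPM, epithelial markers to 12.8 to 16.7 CPM and smooth muscle markers to 32.8 to 39.8 CPM over all nuclei, with every marker of these lists detected. Pairs of libraries shared 0 to 8 annotated barcodes. From nuclei within the study's limits the annotation left out 372 and 196 in control replicates 1 and 2 and 0 in the PP121 samples. Their summed member level was 3742 and 3634 CPM, above that of the annotated nuclei, and ENO1 stood at 162 and 163 CPM. The nuclei left out averaged 6.69% and 6.09% ribosomal counts, whereas annotated nuclei averaged 1.16% to 1.60% in the 4 samples. Values that include these nuclei are given beside the results.

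The 37 members together stood at 2039.9 and 2635 CPM in control replicates 1 and 2 and at 2746 and 3547 CPM in PP121 replicates 1 and 2 over all annotated nuclei. Control replicate 1 was lowest, PP121 replicate 2 highest, and the 2 groups did not overlap. The mean was 2337 ± 421 CPM (SD, n = 2) in control and 3146 ± 566 CPM (SD, n = 2) in PP121 samples. On the log2 scale the means differed by 0.43, beside a pooled SD between replicates of 0.26, and no test was made of this sum. Within each date the PP121 sample was higher by 1.35-fold, and within each treatment replicate 1 stood at 0.774 of replicate 2. Including the unannotated control nuclei, the sums were 2151, 2692, 2746 and 3548 CPM and the folds were 1.28 on day 42 and 1.32 on day 38.

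The same order was found in the neural classes. In enteric neurons the summed level was 2028, 2534, 2540.0 and 3271 CPM. It was 2610.2, 3289.5, 3630.4 and 5648 CPM in progenitor 1 and 1785, 2254, 2442 and 3314 CPM in progenitor 2. The PP121 sample was thus higher by 1.25-fold and 1.29-fold in neurons, by 1.39-fold and 1.72-fold in progenitor 1 and by 1.37-fold and 1.47-fold in progenitor 2, on day 42 and day 38. Progenitor 1 and progenitor 2 were thus close on day 42. When every nucleus was given the class whose mean profile it matched best, the folds were 1.35 and 1.69 in progenitor 1 and 1.41 and 1.60 in progenitor 2, so their order on day 42 turned. The mesenchymal nuclei, at 2677, 2697, 3213 and 2969 CPM, and the unknown class, at 2062, 3327, 2484 and 3028 CPM, did not keep this order. Mesenchymal nuclei numbered 40 and 33 in the replicate 1 samples and 408 and 422 in the replicate 2 samples. The epithelial class, with 9 to 37 nuclei a sample, stood at 1978, 2411, 2863 and 4229.8 CPM.

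**Figure D1:**
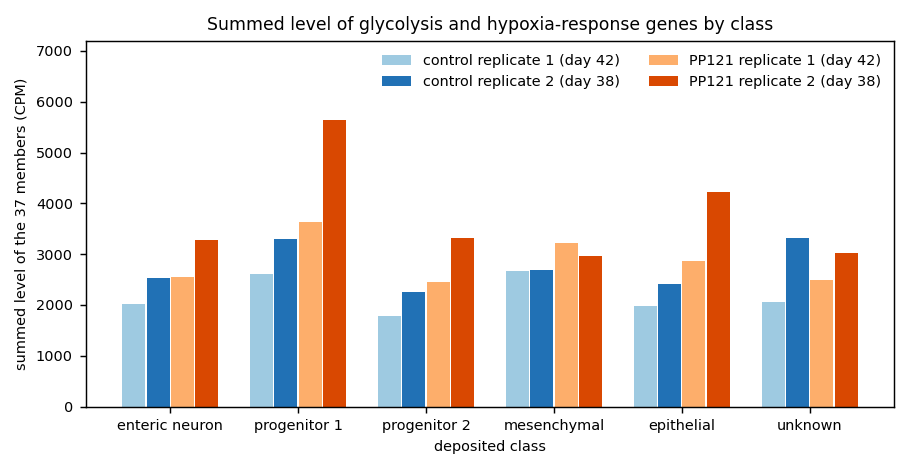
Summed level of the 37 members in CPM (vertical axis, from 0) for the 6 deposited classes, with 1 bar for each of the 4 samples and no error bar since each bar is 1 sample. PP121 replicate 2 has the highest bar in neurons and in both progenitor classes, and control replicate 1 the lowest.

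The 4 role groups made up this sum, and the HIF subunits did not share its direction. In progenitors, the glycolytic enzymes summed to 749.7, 950.2, 1232 and 1643 CPM, the transporters and kinases to 612, 822, 828 and 1239.6 CPM and the hypoxia-response genes to 474, 650.1, 731 and 950.1 CPM. PP121 samples lay above control samples of the same date in each of these groups, by 1.64-fold and 1.73-fold for the enzymes on day 42 and day 38. The HIF subunits, at 203, 271, 209.7 and 228 CPM, were higher in control replicate 2 than in either PP121 sample. Progenitors here and below pool progenitor 1 and progenitor 2. These numbered 586 and 1155 nuclei in control replicate 1, 608 and 683 in control replicate 2, 1197 and 1107 in PP121 replicate 1 and 501 and 855 in PP121 replicate 2. On day 42 and day 38 the enzyme folds were 1.56 and 1.93 in progenitor 1 alone and 1.55 and 1.69 in progenitor 2 alone. The part of this mix in the pooled values was not tested. In neurons the enzymes summed to 852, 1053, 1099 and 1411 CPM and the HIF subunits to 178, 209, 166 and 178 CPM.

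**Figure D2:**
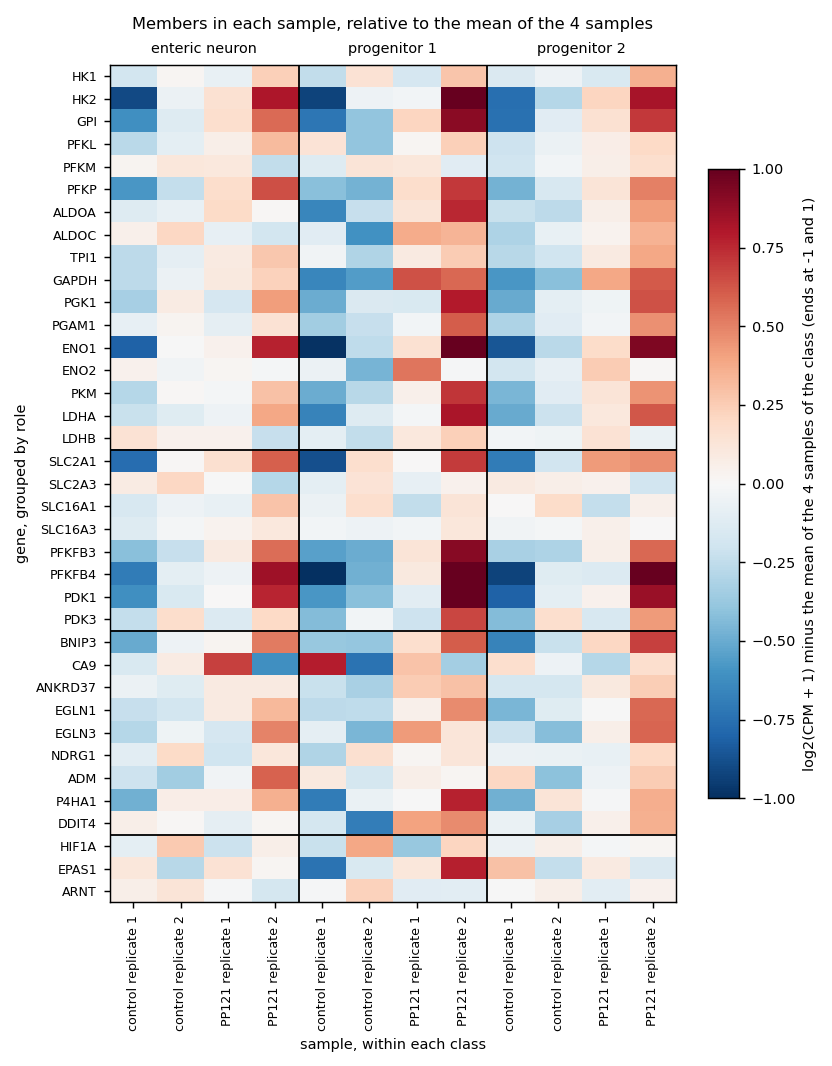
Each row is 1 of the 37 members, grouped by role with lines between the groups (enzymes, transporters and kinases, hypoxia-response genes, HIF subunits), and each column 1 sample within enteric neurons, progenitor 1 or progenitor 2. Colour gives log2(CPM + 1) minus the mean of the 4 samples of that class; most enzyme rows run from blue in control replicate 1 to red in PP121 replicate 2, and the rows of SLC2A3, HIF1A and ARNT do not.

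PP121 against control is the treatment contrast of the design, and it is described here for the whole module. For the 36 members other than ENO1, PP121 samples were higher than the control sample of the same date on both dates for 27 in all nuclei (29.3% of all genes), 25 in neurons (30% of all genes) and 29 in progenitors (26.5% of all genes). On both dates 1, 6 and 2 members were lower (32.7%, 38.7% and 26.3% of all genes). Both PP121 samples lay above both control samples for 22, 17 and 26 members (17.6%, 19.7% and 15.7% of all genes), and below them for 0, 4 and 1 (16%, 25.4% and 12.9%). Without the replicate as a block, edgeR's quasi-likelihood test put 0 of 36 members past an adjusted p of 0.05 in all nuclei, neurons and progenitors, where it called 0% of 24123, 21243 and 20260 genes. The numbers with an unadjusted p under 0.05 were 11, 11 and 17 of 36 (4.61%, 12% and 4.75% of all genes), and DESeq2 called 0, 0 and 1 higher (0.185%, 0.43% and 0.147% of all genes higher). With the replicate as a block, 8 members were higher in all nuclei (0.709% of all genes higher), 15 in neurons (7.97%) and 12 in progenitors (1.16%), and 0 were lower (0.174%, 6.86% and 0.558% of all genes). Nothing is read from these counts, because the members were chosen on this contrast. The median log2 fold change of the 36 members in the blocked fits was 0.38 in all nuclei, 0.31 in neurons and 0.53 in progenitors, against -0.01, -0.01 and -0.02 over all genes tested.

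Among the enzymes of the upper part of glycolysis, HK2, GPI and PFKP were higher in both PP121 samples than in both control samples. HK2, the inducible hexokinase that commits glucose to the cell, was at 18.1 and 33.4 CPM in control replicates 1 and 2 and at 38.8 and 61.4 CPM in PP121 replicates 1 and 2 in neurons and at 26.4, 46.4, 55.7 and 91.1 CPM in progenitors. Control replicate 1 was lowest and PP121 replicate 2 highest in both classes. Glucose-6-phosphate isomerase, GPI, was at 87.5, 123, 151 and 199.8 CPM in neurons and at 60.2, 88.5, 123 and 176 CPM in progenitors. PFKP, the platelet isoform of phosphofructokinase, was at 35.6, 45.5, 60.8 and 84.7 CPM and 34.7, 39.7, 55.1 and 72.2 CPM in the same classes. The groups of all 3 genes did not overlap, and the log2 fold changes with the block in progenitors were 1.01 ± 0.19 (SE) for HK2, 1.00 ± 0.18 (SE) for GPI and 0.75 ± 0.19 (SE) for PFKP. HK1, the constitutive hexokinase, differed less, at 76.7, 88.5, 82.9 and 103 CPM in neurons, and its groups overlapped. The liver and muscle isoforms PFKL and PFKM were at 7.76, 8.84, 9.98 and 12.1 CPM and 18.0, 19.1, 19.1 and 14.7 CPM in neurons. Of the aldolases, which split fructose bisphosphate, ALDOA stood at 5.35, 6.71, 9.10 and 11.8 CPM and ALDOC at 3.18, 3.09, 4.95 and 5.25 CPM in progenitors, levels that rest on 29 to 136 UMIs a sample.

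In the lower part of the pathway, ENO1 itself was at 56.9 and 101 CPM in control replicates 1 and 2 and at 104 and 172 CPM in PP121 replicates 1 and 2 in neurons. In progenitor 1 it was at 75.0, 126, 167 and 321 CPM and in progenitor 2 at 66.9, 101, 138 and 233 CPM. The lowest value was that of control replicate 1 and the highest that of PP121 replicate 2 in all 3 classes. Over all nuclei the mean was 83.9 ± 30.5 CPM (SD, n = 2) in control and 165 ± 56.5 CPM (SD, n = 2) in PP121 samples, and the PP121 sample was 2.00-fold and 1.94-fold the control sample on day 42 and day 38. Including the unannotated control nuclei, these folds were 1.81 and 1.88. ENO1 gets no test of PP121 against control, since it is the gene by which the module was chosen.

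In the comparison of the replicates described further on, 8 members, HK2, PGK1, ENO1, SLC2A1, PFKFB4, PDK1, PDK3 and P4HA1, were lower in replicate 1 in each of the 3 fits. The reference table of promoters lists a single start for 6 of them, and the 250 bases before that start are shown because these genes differed between the replicates in the same direction. The sequences are from RefSeq on GRCh38.p14, written 5′ to 3′ on the gene's strand and ending 1 base before the start. They lie at chr1:8878687-8878936 for ENO1, chr1:42958869-42959118 for SLC2A1, chr3:48556804-48557053 for PFKFB4 and chr10:73096867-73097116 for P4HA1 on the minus strand, and at chrX:78103998-78104247 for PGK1 and chrX:24465036-24465285 for PDK3 on the plus strand. The GENCODE v29 gene, which includes transcripts that start further upstream, covers all 250 bases for ENO1, PGK1, SLC2A1 and PFKFB4, 108 for P4HA1 and 65 for PDK3. Capitals mark ACGTG or GCGTG on either strand (CACGT or CACGC on the strand shown), the core of the motif that HIF binds.
ENO1: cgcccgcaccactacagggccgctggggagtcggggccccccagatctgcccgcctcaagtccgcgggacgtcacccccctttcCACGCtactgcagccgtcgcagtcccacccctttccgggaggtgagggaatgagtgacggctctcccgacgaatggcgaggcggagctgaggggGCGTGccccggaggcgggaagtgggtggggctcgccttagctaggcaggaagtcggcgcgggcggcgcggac
PGK1: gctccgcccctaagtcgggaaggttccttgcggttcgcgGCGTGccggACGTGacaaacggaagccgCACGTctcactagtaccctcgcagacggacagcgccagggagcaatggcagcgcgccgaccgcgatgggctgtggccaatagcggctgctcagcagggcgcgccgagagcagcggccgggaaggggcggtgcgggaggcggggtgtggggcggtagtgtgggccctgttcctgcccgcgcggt
SLC2A1: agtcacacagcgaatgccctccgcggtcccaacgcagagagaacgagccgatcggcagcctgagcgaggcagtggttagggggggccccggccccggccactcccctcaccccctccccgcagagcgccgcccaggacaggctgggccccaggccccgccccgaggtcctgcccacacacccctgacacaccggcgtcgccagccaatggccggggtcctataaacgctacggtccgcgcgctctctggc
PFKFB4: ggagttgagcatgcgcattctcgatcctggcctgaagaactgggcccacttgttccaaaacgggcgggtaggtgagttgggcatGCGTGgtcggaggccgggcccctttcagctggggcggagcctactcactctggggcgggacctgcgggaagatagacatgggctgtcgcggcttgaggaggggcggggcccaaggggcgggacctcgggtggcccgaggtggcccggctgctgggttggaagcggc
PDK3: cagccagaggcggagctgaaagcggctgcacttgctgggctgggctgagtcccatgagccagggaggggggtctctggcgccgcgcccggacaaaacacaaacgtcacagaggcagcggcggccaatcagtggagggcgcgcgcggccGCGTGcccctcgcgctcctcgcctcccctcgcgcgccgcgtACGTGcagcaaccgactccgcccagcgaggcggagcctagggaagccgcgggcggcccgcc
P4HA1: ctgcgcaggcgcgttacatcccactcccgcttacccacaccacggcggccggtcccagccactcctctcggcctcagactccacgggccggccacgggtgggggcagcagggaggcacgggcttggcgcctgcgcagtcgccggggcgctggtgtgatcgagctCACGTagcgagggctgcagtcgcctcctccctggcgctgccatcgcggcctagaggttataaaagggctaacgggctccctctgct
PGK1 held 3 matches, ENO1 and PDK3 2 each, PFKFB4 and P4HA1 1 each and SLC2A1 0 in this window. At least 1 match was found in 36 of 61 listed promoters of 34 members (59.0%), against 15172 of 35116 promoters of all genes (43.2%). A match in CACGTG counts on both strands. The matches are a description of these letters and no measurement of binding, and SLC2A3, SLC16A1 and NDRG1 were not searched.

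GAPDH, which oxidises glyceraldehyde phosphate, was at 86.5, 95.5, 193 and 201 CPM in progenitors, where the 2 groups did not overlap. It was at 108, 124, 138 and 152 CPM in neurons. These values leave out the unannotated control nuclei. The mean log2 ratio of GAPDH in progenitor 1 to progenitor 2 was 0.17 in the deposited classes. With the unannotated nuclei included and classes from matched mean profiles it was 1.16. The part of these nuclei in the GAPDH values was not tested. PGK1, the first step that makes ATP, was at 94.7, 134, 141 and 224 CPM in progenitors and 110.2, 147, 124 and 186 CPM in neurons, where the groups overlapped. PKM, pyruvate kinase, was at 74.6, 94.5, 117 and 154 CPM and LDHA, the lactate dehydrogenase subunit that favours lactate formation, at 40.6, 54.4, 64.0 and 98.2 CPM in progenitors. For both the PP121 samples were the 2 highest. TPI1, triose phosphate isomerase, stood at 48.3, 47.0, 59.5 and 70.7 CPM and PGAM1, phosphoglycerate mutase, at 39.1, 45.7, 51.6 and 71.3 CPM. The neuronal enolase ENO2 was at 50.9, 48.2, 50.1 and 48.8 CPM in neurons, and at 28.7, 27.5, 47.1 and 31.7 CPM in progenitors. LDHB, the lactate dehydrogenase subunit of oxidative tissue, was at 37.0, 34.6, 34.5 and 28.4 CPM in neurons and 50.8, 48.9, 59.1 and 54.7 CPM in progenitors.

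Of the transporters and regulatory kinases, PFKFB4, PDK1, SLC2A1, PFKFB3 and SLC16A3 had both PP121 samples above both control samples in neurons and in progenitors. PFKFB4, which makes and removes the fructose bisphosphate that activates phosphofructokinase, was at 74.8 and 114 CPM in control replicates 1 and 2 and at 118 and 221 CPM in PP121 replicates 1 and 2 in neurons and at 67.2, 108, 160.5 and 436 CPM in progenitor 1. In progenitor 1 the value of PP121 replicate 2 stood clear of the other three samples. PDK1, a kinase that keeps pyruvate out of the mitochondrial pathway, was at 59.4, 82.2, 91.9 and 156 CPM in neurons and 42.2, 61.3, 72.9 and 138 CPM in progenitors. The glucose transporter SLC2A1 was at 17.3, 30.3, 33.7 and 45.9 CPM and 31.9, 58.9, 68.4 and 82.8 CPM in these classes. PFKFB3, the paralogue of PFKFB4 with mainly kinase activity, was at 86.6, 99.0, 124 and 172 CPM and 59.1, 59.0, 81.7 and 125 CPM. The blocked log2 fold changes in neurons were 0.84 ± 0.10 (SE) for PFKFB4, 0.81 ± 0.10 (SE) for PDK1, 0.82 ± 0.13 (SE) for SLC2A1 and 0.69 ± 0.10 (SE) for PFKFB3. SLC2A3, the glucose transporter typical of neurons, was at 73.2, 79.5, 68.7 and 56.4 CPM in neurons, with both PP121 samples below both control samples, and at 97.9, 120.0, 113 and 95.9 CPM in progenitors. The lactate carriers SLC16A1 and SLC16A3 were at 36.2, 39.2, 38.6 and 49.9 CPM and 65.5, 70.6, 73.4 and 77.1 CPM in neurons. PDK3 was at 173, 230.0, 185 and 233 CPM there, so that its order followed the replicate number.

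The hypoxia-response genes were uneven. BNIP3, which takes part in the removal of mitochondria, was at 57.5, 79.2, 83.5 and 118 CPM in neurons and 54.3, 67.6, 97.5 and 126 CPM in progenitors. P4HA1, a collagen prolyl hydroxylase, was at 189.7, 277, 277 and 338 CPM and 269.8, 430.4, 429 and 589 CPM, with control replicate 2 and PP121 replicate 1 at nearly the same level. EGLN1, an oxygen sensor that is itself a HIF target, was at 74.0, 76.3, 92.3 and 109 CPM and 51.1, 59.7, 69.1 and 98.4 CPM. Their blocked log2 fold changes in neurons were 0.60 ± 0.10 (SE) for BNIP3, 0.46 ± 0.09 (SE) for P4HA1 and 0.45 ± 0.10 (SE) for EGLN1. DDIT4, an inhibitor of mTORC1 signalling, differed between the classes, with 44.0, 42.4, 39.6 and 42.6 CPM in neurons and 41.1, 32.9, 59.4 and 59.9 CPM in progenitors. EGLN3 was at 14.9, 12.4, 20.7 and 23.3 CPM, ANKRD37 at 14.0, 14.4, 20.5 and 19.7 CPM and NDRG1 at 17.4, 24.4, 23.8 and 22.8 CPM in progenitors. ADM, the peptide hormone adrenomedullin, was at 8.92, 7.45, 9.70 and 8.93 CPM there. CA9, a carbonic anhydrase induced by HIF, was at 1.21 to 1.80 CPM over all nuclei on 30 to 61 UMIs a sample, and 10 nuclei held 72.1% of its UMIs in PP121 replicate 1.

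The HIF subunits themselves did not follow the order of the enzymes. HIF1A was at 100.0, 129, 92.2 and 112 CPM in neurons and 117, 172, 124 and 142 CPM in progenitors, with blocked log2 fold changes of -0.12 ± 0.10 (SE) and -0.10 ± 0.18 (SE). Control replicate 2 had the highest value in both classes. ARNT, the partner of the alpha subunits, was at 73.3, 77.3, 69.8 and 62.1 CPM and 82.8, 97.5, 82.8 and 82.7 CPM. EPAS1, which encodes HIF-2 alpha, was at 4.33, 3.07, 4.46 and 4.00 CPM in neurons and 2.87, 1.92, 2.54 and 2.84 CPM in progenitors, on 18 to 82 UMIs a sample.

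**Figure D3:**
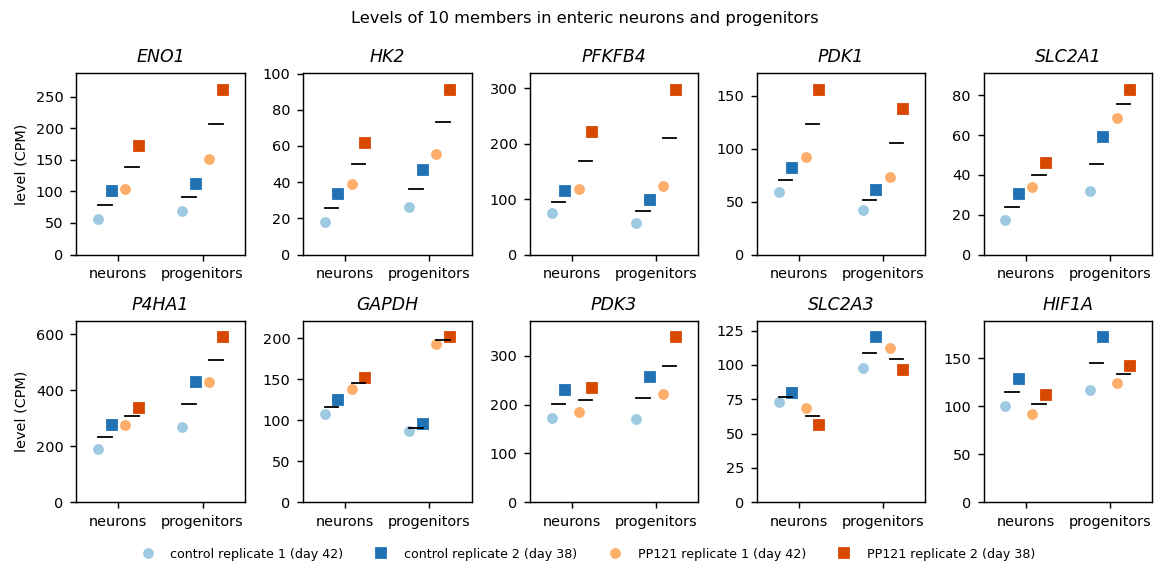
Level in CPM (vertical axes, from 0) of 10 members in enteric neurons and progenitors, with 1 point per sample (circles, replicate 1; squares, replicate 2) and a line at the mean of each group of 2. ENO1, HK2, PFKFB4, PDK1 and SLC2A1 run from control replicate 1 to PP121 replicate 2, whereas PDK3 and HIF1A are higher in the squares of each group and SLC2A3 in neurons is lowest in PP121 replicate 2.

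Mitochondrial counts, ribosomal counts in progenitors and the class boundary differed between the treatments. The mean percentage of mitochondrial counts per nucleus over all nuclei was 0.0374 and 0.0325 in the control samples and 0.0194 and 0.0204 in the PP121 samples. It was 0.0395, 0.0371, 0.0179 and 0.0229 in neurons, 0.0288, 0.0275, 0.0225 and 0.0193 in progenitor 1 and 0.0401, 0.0348, 0.0208 and 0.0169 in progenitor 2. Both PP121 samples lay below both control samples in each of these classes. In mesenchymal nuclei it was 0.0201, 0.0225, 0.0159 and 0.0263, and the groups overlapped. The mean percentage of ribosomal counts was 1.31, 1.18, 2.21 and 1.53 in progenitor 1 and 1.26, 1.15, 1.97 and 1.45 in progenitor 2, where PP121 samples were higher. In neurons it was 1.15, 1.00, 1.10 and 0.953, and the groups overlapped. The part of these differences in the results was not tested. Dissociation stress genes summed to 231, 191, 192 and 183 CPM in neurons and 292, 249, 321 and 285 CPM in progenitors, with no common order. Among nuclei under 2% ribosomal counts, 9, 13 and 13 of 36 members were higher with the block in all nuclei, neurons and progenitors (2.11%, 4.74% and 2.17% of all genes), counts that describe the contrast on which the members were chosen. With classes from matched mean profiles, 14.0% and 16.6% of control neurons moved to progenitor 1, against 2.76% and 2.36% of PP121 neurons. With those classes and the unannotated control nuclei included, the summed level of the members was 1897, 2389, 2557 and 3394 CPM in neurons and 2442, 2967, 3002 and 3992 CPM in progenitors, and 15 and 8 members were higher with the block (2.05% and 4.16% of all genes).

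Replicate 1 and replicate 2 were then compared, with the treatment as a term of the fit, to describe how the members varied between the dates. This contrast did not choose the members, and it was tested. The date coincides with the replicate number, and it cannot be told apart from differences between the separate differentiations. Of the 37 members, edgeR's quasi-likelihood test found 9 lower in replicate 1 than in replicate 2 over all nuclei (3.78% of all genes lower), 16 in neurons (5.81%) and 9 in progenitors (1.58%). In the other direction the test called 0 of 37 members in each class (1.75%, 3.68% and 1.41% of all genes higher), and DESeq2 called 9, 9 and 7 members lower (3.33%, 2.03% and 0.738% of all genes) and 0 higher (1.15%, 0.898% and 0.438%). The median log2 fold change of the members was -0.31 in all nuclei, -0.32 in neurons and -0.41 in progenitors, against 0.01, 0.01 and 0.00 over all genes. Within both treatments replicate 1 was below replicate 2 for 26, 25 and 21 members (23.7%, 25.3% and 18.8% of all genes) and above it for 4, 3 and 4 (43%, 41.5% and 41.9%). The 2 dates did not overlap for 8, 10 and 5 members that were lower (16.1%, 14.2% and 12.8%) and for 3, 2 and 1 that were higher in replicate 1 (32.2%, 24.8% and 33.1%). Without the treatment as a term the same test called 0 members in each class, with 6, 4 and 7 at an unadjusted p under 0.05. Of all genes, 3179 of 24123, 1574 of 21243 and 2248 of 20260 had such a p. With a library left out, the treatment cannot be a term, since no residual degrees of freedom would remain, so these fits differ from the main one in both respects. They called 0 members in each class without control replicate 1 or PP121 replicate 2. Without control replicate 2 they called 4, 1 and 11 members lower (3.62%, 0.84% and 3.19% of all genes), and without PP121 replicate 1 they called 0, 0 and 8 (0.77%, 0.0795% and 0.785%). Mesenchymal markers summed to 35.1, 302, 27.1 and 326 CPM over all nuclei, to 11.2, 36.9, 7.66 and 34.8 CPM in neurons and to 17.0, 47.0, 11.6 and 54.8 CPM in progenitors, with 7 of 7 markers detected. They too were higher in replicate 2, and their part in the result was not tested.

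Of the glycolytic enzymes, ENO1, HK2 and PGK1 fell in replicate 1 in all 3 fits. ENO1, whose levels in neurons were 56.9, 101, 104 and 172 CPM, had a log2 fold change of -0.84 ± 0.10 (SE, adjusted p = 7.86e-07) in neurons and -0.85 ± 0.18 (SE, adjusted p = 0.00274) in progenitors. Replicate 1 was below replicate 2 in both treatments, but control replicate 2 and PP121 replicate 1 stood at a similar level, so the 2 dates overlapped. For HK2 the values were -0.83 ± 0.12 (SE, adjusted p = 2.74e-05) and -0.87 ± 0.19 (SE, adjusted p = 0.00474), and for PGK1 -0.56 ± 0.09 (SE, adjusted p = 1.45e-04) and -0.70 ± 0.18 (SE, adjusted p = 0.0163). Both PGK1 values of replicate 1 in neurons, 110.2 and 124 CPM, lay below both of replicate 2, 147 and 186 CPM. GPI also fell in neurons, with a value of -0.50 ± 0.09 (SE, adjusted p = 4.57e-04), and in progenitors, with -0.65 ± 0.18 (SE, adjusted p = 0.0346). HK1, PFKP and PKM fell in neurons, with log2 fold changes of -0.32 ± 0.10 (SE), -0.48 ± 0.11 (SE) and -0.37 ± 0.10 (SE). TPI1, GAPDH, PGAM1, LDHA, LDHB, ENO2, PFKL, PFKM, ALDOA and ALDOC did not pass the test in all nuclei, neurons or progenitors.

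Among transporters and kinases, SLC2A1, PFKFB4, PDK1 and PDK3 fell in replicate 1 in all 3 fits. PFKFB4 had the lowest log2 fold change of the 37 members in progenitors, -1.14 ± 0.18 (SE, adjusted p = 5.94e-05), and stood at -0.82 ± 0.10 (SE, adjusted p = 1.33e-06) in neurons. PDK1 had -0.68 ± 0.10 (SE, adjusted p = 4.11e-05) in neurons and -0.85 ± 0.19 (SE, adjusted p = 0.00515) in progenitors. PDK3, another pyruvate dehydrogenase kinase, had -0.43 ± 0.09 (SE, adjusted p = 0.00148) and -0.71 ± 0.17 (SE, adjusted p = 0.00899), and its 2 dates did not overlap in either class. SLC2A1 had -0.68 ± 0.13 (SE, adjusted p = 6.60e-04) and -0.68 ± 0.20 (SE, adjusted p = 0.0421). PFKFB3 passed in neurons, with -0.40 ± 0.10 (SE, adjusted p = 0.00879), against -0.43 ± 0.19 (SE, adjusted p = 0.270) in progenitors, a difference between the classes that was not tested. SLC2A3, SLC16A1 and SLC16A3 did not pass in all nuclei, neurons or progenitors.

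P4HA1 was the hypoxia-response gene that fell in replicate 1 in all 3 fits, with -0.48 ± 0.09 (SE, adjusted p = 6.58e-04) in neurons and -0.68 ± 0.16 (SE, adjusted p = 0.0102) in progenitors. BNIP3 and EGLN3 fell in neurons, with -0.54 ± 0.10 (SE, adjusted p = 5.32e-04) and -0.55 ± 0.17 (SE, adjusted p = 0.0377). NDRG1, a stress-induced gene, fell over all nuclei, with -0.69 ± 0.16 (SE, adjusted p = 0.0383), but had -0.38 ± 0.15 (SE, adjusted p = 0.103) in neurons and -0.32 ± 0.21 (SE, adjusted p = 0.532) in progenitors. NDRG1 stood at 107, 97.8, 158 and 50.4 CPM in mesenchymal nuclei, which made up more of the replicate 2 samples. The part of the mix of classes in its call over all nuclei was not tested. HIF1A fell in neurons, with -0.38 ± 0.10 (SE, adjusted p = 0.00991), at levels of 100.0, 129, 92.2 and 112 CPM. CA9, ADM, ANKRD37, EGLN1, DDIT4, EPAS1 and ARNT did not pass in all nuclei, neurons or progenitors. Fitted alone, progenitor 1 had 15 members lower in replicate 1 (8.95% of all genes) and progenitor 2 had 11 (2.55% of all genes), and HIF1A had -0.76 ± 0.16 (SE, adjusted p = 7.40e-05) in progenitor 1.

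**Figure D4:**
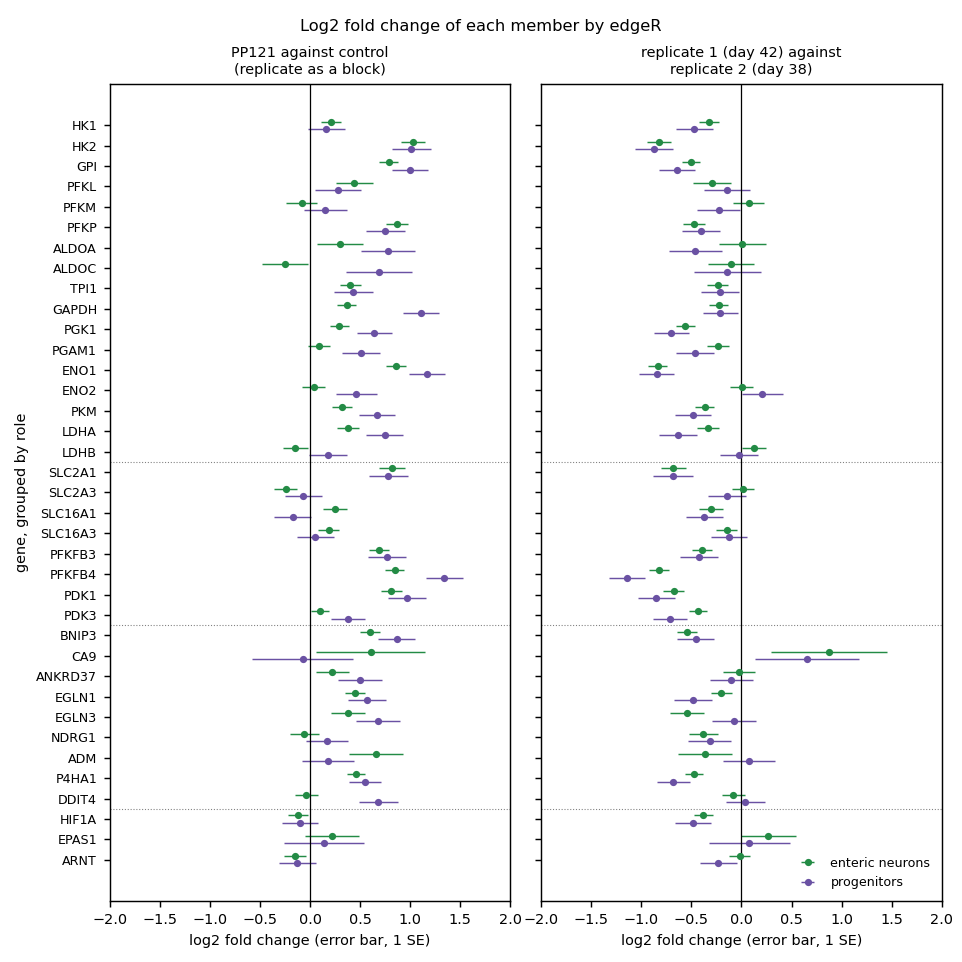
Log2 fold change (horizontal axes) of each member by edgeR in enteric neurons (green) and progenitors (purple), with error bars of 1 SE, for PP121 against control with the replicate as a block (left) and for replicate 1 against replicate 2 with the treatment as a term (right). ENO1, HK2, PFKFB4 and PDK1 lie well above 0 on the left and well below 0 on the right; the left panel is a description, since the members were chosen on that contrast.

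Whether the PP121 difference itself differed between neurons and the pooled progenitors was described with 1 fit over both classes, with the sample as a block. In this fit 0 of 36 members were called (0% of 21787 genes in either direction), with 9 at an unadjusted p under 0.05 (9.74% of all genes), and DESeq2 called 1 lower, GAPDH (0.363% of all genes lower). Allowing the replicate to act differently in each class, 2 members had a smaller PP121 difference in neurons than in progenitors (0.909% of all genes lower) and 0 a larger one (0.744%). They were GAPDH, with an interaction of -0.74 ± 0.14 (SE, adjusted p = 0.00656) on the log2 scale, and DDIT4, with -0.72 ± 0.17 (SE, adjusted p = 0.0289). DDIT4 was higher with PP121 on both dates in progenitors, by 1.45-fold and 1.82-fold, and stood at 0.900 and 1.01 of control in neurons. GAPDH was 1.28-fold and 1.22-fold higher with PP121 in neurons on day 42 and day 38, and 2.24-fold and 2.10-fold in progenitors. Among nuclei under 2% ribosomal counts, and with classes from matched mean profiles, 0 members were called, with the block kept. The members were chosen on the PP121 contrast, so these calls are a description. The boundary between the classes differed between the treatments, and its part in the interaction was not tested.

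Within samples, neurons and the pooled progenitors had mean ratios under 2-fold for every member. The ratio of neurons to progenitors was formed in each sample on the scale log2(CPM + 1), which understates differences of low genes, and it is described without a test because the classes come from the expression of the same nuclei. Of the 37 members, 9 were higher in neurons in 4 of 4 samples (26.4% of all genes) and 14 were lower (34.7% of all genes), and 0 reached 2-fold (7.14% of genes higher and 5.36% lower). PFKFB3 had a mean log2 ratio of 0.58 ± 0.12 (SD, n = 4), ENO2 0.57 ± 0.33 and EPAS1 0.49 ± 0.10. GPI, EGLN1, PDK1, HK1, TPI1 and PFKP were also higher in neurons. On the side of progenitors, SLC16A1 had -0.94 ± 0.22, SLC2A1 -0.91 ± 0.08, ADM -0.81 ± 0.37, LDHB -0.65 ± 0.23 and P4HA1 -0.64 ± 0.12. HK2, PFKL, SLC2A3, ENO1, ALDOA, HIF1A, ARNT, ANKRD37 and SLC16A3 were lower in neurons as well. With classes from matched mean profiles 2 members, SLC2A1 and ADM, were at least 2-fold lower in neurons, with mean log2 ratios of -1.01 ± 0.16 and -1.17 ± 0.49.

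Progenitor 1 stood above progenitor 2 for most members. Of 37 members, 27 were higher in progenitor 1 in 4 of 4 samples (27.4% of all genes) and 0 lower (33.8%), and the median log2 ratio was 0.57, against -0.07 over all genes. In all, 5 members were at least 2-fold higher (3.58% of all genes): NDRG1 with 1.47 ± 0.20 (SD, n = 4), SLC2A3 with 1.40 ± 0.19, ADM with 1.38 ± 0.21, HIF1A with 1.13 ± 0.32 and PGK1 with 1.03 ± 0.12. HIF1A was at 177, 271, 159.5 and 241 CPM in progenitor 1 and at 90.8, 98.3, 93.2 and 95.7 CPM in progenitor 2, with no overlap between the classes. SLC2A3 was at 162, 191, 164 and 179 CPM and 69.4, 67.9, 66.9 and 56.7 CPM. PFKFB3 and EPAS1 were the 2 members with a mean ratio below 0, at -0.10 ± 0.26 and -0.68 ± 0.80. The median UMIs per nucleus were 4854 to 5954 in progenitor 1 and 6242 to 6706 in progenitor 2, and the part of depth in this difference was not tested. With classes from matched mean profiles 28 members were higher in progenitor 1 and 2 lower in 4 of 4 samples, and 11 were at least 2-fold higher, HK2, ENO2 and DDIT4 among them.

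Shares of paralogues need no scaling between libraries. In neurons those of ENO2, HK2, LDHB, SLC2A3, PDK3 and PFKP had control replicate 1 at one end and PP121 replicate 2 at the other. ENO2 made up 47.2% of the enolase UMIs of ENO1 and ENO2 in neurons of control replicate 1 and 22.0% (95% interval 20.2 to 24.0, 1937 UMIs) in PP121 replicate 2. Control replicate 2 and PP121 replicate 1 lay between, at 32.4% (95% interval 30.1 to 34.7, 1649 UMIs) and 32.6% (95% interval 30.8 to 34.4, 2589 UMIs), and did not differ beyond counting error. The order by treatment is again a description, since ENO1 is in the share. Within samples the share was higher in neurons than in progenitors by 12.7 ± 3.82 points (SD, n = 4). HK2 took 19.1, 27.4, 31.9 and 37.3% of the HK1 and HK2 UMIs in neurons and 31.1, 37.9, 45.5 and 51.8% in progenitors, a larger share in progenitors in 4 of 4 samples. LDHB took 42.5, 39.2, 37.9 and 27.0% of lactate dehydrogenase UMIs in neurons and 55.6, 47.3, 48.0 and 35.8% in progenitors. Counting intervals cover counting error only.

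SLC2A3 took 80.2, 69.5, 68.8 and 59.7% of the UMIs of SLC2A1 and SLC2A3 in progenitor 1 and 70.9, 62.5, 51.5 and 46.7% in progenitor 2, a difference of 11.7 ± 4.52 points (SD, n = 4). SLC16A3 took 64.4, 64.3, 65.6 and 60.7% of the pair with SLC16A1 in neurons and 49.2, 45.9, 54.1 and 48.9% in progenitors. PFKP was the main phosphofructokinase by UMIs, with 58.0, 62.0, 67.7 and 75.9% in neurons, and PFKL took 12.6, 12.0, 11.1 and 10.8%. PDK3 took 74.4, 73.7, 66.8 and 60.0% of the pair with PDK1, and EGLN3 took 13.2, 15.1, 11.8 and 15.6% of the pair with EGLN1. EPAS1 took 4.15, 2.33, 4.61 and 3.45% of the HIF1A and EPAS1 UMIs in neurons. UMIs were not adjusted for gene length, so shares compare samples and classes and not the levels of 2 genes.

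**Figure D5:**
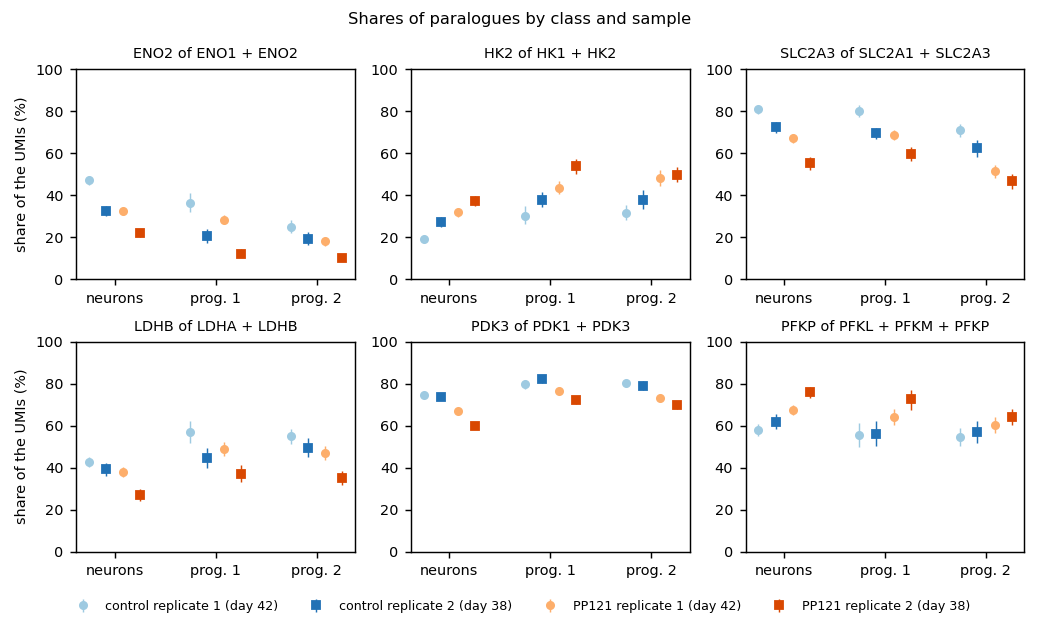
Share (vertical axes, 0 to 100%) of 1 paralogue in the UMIs of its pair or trio in enteric neurons, progenitor 1 and progenitor 2, with 1 point per sample and exact 95% counting intervals. In neurons the shares of ENO2, SLC2A3, LDHB and PDK3 are highest in control replicate 1 and lowest in PP121 replicate 2. Those of HK2 and PFKP have the reverse ends, and the ENO2 shares of control replicate 2 and PP121 replicate 1 lie close together.

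Other genes of the same pathways were counted from lists kept apart from the members. Of 40 further hypoxia-response genes, 38 could be tested in neurons. Of these, 14 were lower (5.81% of all genes) and 0 higher (3.68%) in replicate 1. In progenitors 4 of 38 were lower (1.58% of all genes) and 0 higher (1.41%). Without the treatment as a term, 0 genes of any list were called in neurons or progenitors. PLOD2, a lysyl hydroxylase of collagen, was at 17.8, 35.9, 27.5 and 81.7 CPM in neurons and had a log2 fold change of -1.37 ± 0.13 (SE, adjusted p = 3.04e-08) there and -1.46 ± 0.19 (SE, adjusted p = 1.81e-06) in progenitors. GBE1, the glycogen branching enzyme, was at 55.8, 108, 107 and 246 CPM in neurons, with -1.14 ± 0.10 (SE, adjusted p = 3.85e-09). FAM162A and P4HA2 had -0.68 ± 0.13 (SE, adjusted p = 6.97e-04) and -0.65 ± 0.17 (SE, adjusted p = 0.0118) in neurons. The 4 in progenitors were PLOD2, TMEM45A, ERO1A and WSB1, and TMEM45A and ERO1A had -0.75 ± 0.21 (SE, adjusted p = 0.0331) and -0.70 ± 0.19 (SE, adjusted p = 0.0262) there. Over all nuclei 11 of 40 were lower (3.78% of all genes) and 0 higher (1.75%). Among the 11 was PLOD1, with -0.85 ± 0.19 (SE, adjusted p = 0.0366). In the blocked PP121 fits 4 of 40 were higher in all nuclei (0.709% of all genes), 15 of 38 in neurons (7.97%) and 5 of 38 in progenitors (1.16%). In these fits 0 were lower (0.174%, 6.86% and 0.558% of all genes). Without the block, edgeR called 0 genes in all nuclei, neurons and progenitors. The lists, like the members, were chosen with earlier results of these data known. The 4 over all nuclei were PLOD2, TMEM45A, GBE1 and MIR210HG, the 5 in progenitors were PLOD2, TMEM45A, FAM162A, PPFIA4 and MIR210HG, and AK4 was among the 15 in neurons.

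The remaining enzymes of sugar metabolism had no common direction. Of 33 further glycolysis genes, 25 could be tested in neurons. There 4, LDHC, SLC2A13, PGM1 and PGM2, were lower in replicate 1 (5.81% of all genes). The 1 that was higher (3.68% of all genes) was PFKFB2, with 0.74 ± 0.18 (SE, adjusted p = 0.00789). In progenitors 1 of 25 was lower (1.58% of all genes), the sugar transporter SLC2A13, with -0.79 ± 0.18 (SE, adjusted p = 0.00764). The median log2 fold change of this list was -0.0049 in neurons and 0.12 in progenitors, against -0.32 and -0.41 for the members. Of the genes named from these lists of further hypoxia-response and glycolysis genes, WSB1, MIR210HG, LDHC, PGM1 and PGM2 were named after their values were seen.

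Several members are uncertain because other features share their place in the genome. In GENCODE v29, 24 of 37 members overlap another feature, and 16 have pseudogenes that carry their name, 62 for GAPDH and 39 for BNIP3. The sources used here do not say whether strand or introns were counted. HIF1A-AS3 had 3872, 3692, 3779 and 3021 UMIs, close to the 3593, 3759, 3593 and 2917 of HIF1A, and SLC16A1-AS1 had more UMIs than SLC16A1 in 4 of 4 samples. ENO1-AS1 had 2 to 9 UMIs a sample against 2128 to 4778 for ENO1.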

How the data were processed

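Libraries were 10x 3′ v3.1 libraries of nuclei. The deposited matrices hold whole UMI counts per gene and nucleus made by the authors, with percentages of mitochondrial and ribosomal counts computed by the authors with Seurat. The methods name kallisto and bustools, whereas the labels list Cell Ranger, Seurat 4.0.4 and GRCh38. The authors removed nuclei outside their limits and clusters of low quality, and named the classes. Nuclei they marked as filtered were dropped here, except where stated, and no doublet caller was run.

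Counts were summed per class and sample and fitted with edgeR 4.0.16 in R 4.3.3 (quasi-likelihood test, TMM, filterByExpr, Benjamini-Hochberg over all genes, threshold 0.05, two-sided). The SE printed with a log2 fold change is the size of that change divided by the square root of edgeR's F statistic. It draws on dispersion shared over genes and is no spread measured between replicates. DESeq2 1.42.0 was an alternative. Classes from matched mean profiles were set with 12235 genes. Scripts were tested on simulated data. Shares have exact Clopper-Pearson intervals at 95% (scipy 1.17.1), which cover counting error only. Samples with the same replicate number share a dated day, and their deviations from the group means correlated at 0.532 over all nuclei, 0.421 in neurons and 0.284 in progenitors, so the number was taken to pair samples. Each sample is labelled as a separate differentiation, so the pairing rests on the shared day and on these correlations in the same data.

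The members and lists were chosen with earlier results of these data known. All members were named, and of the other listed genes the 5 with the largest absolute log2 fold change among those past the threshold at a mean of at least 10 CPM in each fit; exceptions are named as such. Alternatives changed the normalization, filter, nuclei, classes, block or samples.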

Additional observations from a re-analysis of the deposited data

Results flagged for a closer look

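GAPDH and DDIT4 had PP121 differences that themselves differed between neurons and progenitors when the replicate was a block. The interaction was -0.74 on the log2 scale for GAPDH and -0.72 for DDIT4. The members were chosen on the PP121 contrast, so these calls are a description. Without the block, edgeR with the filter on low counts called neither gene. With the block, neither was called by DESeq2, among nuclei with few ribosomal counts or with classes from matched mean profiles. Members were still called with total counts or without the nuclei with most UMIs.

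A further 3 genes moved in opposite directions in the 2 classes on both dates, a difference that was not tested. ALDOC stood at 0.897 and 0.726 of control in neurons and at 1.56 and 1.70 in progenitors, on day 42 and day 38. LDHB stood at 0.932 and 0.821 in neurons and at 1.16 and 1.12 in progenitors. SLC16A1, the reverse case, stood at 1.06 and 1.27 in neurons and at 0.861 and 0.925 in progenitors. ALDOC rests on 29 to 113 UMIs a sample and class.

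The control nuclei that met the study's limits but carry no class lie outside the comparisons, and their summed member level was 3742 CPM in replicate 1 and 3634 CPM in replicate 2, above that of the annotated nuclei of the same samples.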

How the results depend on the processing

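With the replicate as a block, the pairing of the samples, the PP121 contrast went from 0 members to 8 in all nuclei, 15 in neurons and 12 in progenitors, and the interaction from 0 to 2. Together with the block, DESeq2 gave 9, 9 and 6, total counts 8, 12 and 14 (interaction 2), nuclei under 2% ribosomal counts 9, 13 and 13, and leaving out the 5% of nuclei with most UMIs 13, 13 and 11 (interaction 2). Of all genes, DESeq2 called 240 of 16172, 453 of 11770 and 73 of 13190 higher in these fits. Total counts called 189 of 24123, 1129 of 21243 and 327 of 20260 higher. Under 2% ribosomal counts 496 of 23540, 991 of 20922 and 431 of 19895 genes were higher. Without the nuclei with most UMIs 671 of 23670, 1039 of 20592 and 208 of 19922 genes were higher. Also with the block, including unannotated control nuclei gave 8 in all nuclei, classes from matched profiles 15 and 9, both together 15 and 8, and progenitor 1 and progenitor 2 alone 14 and 17. Of all genes, 319 of 24130 were higher with the unannotated nuclei, and 477 of 21110 and 453 of 20787 with matched profiles. Both together gave 433 of 21110 and 871 of 20956 genes higher, and progenitor 1 and progenitor 2 alone 467 of 16083 and 828 of 18885. In every other fit with the block no interaction of a member was called. Of all genes, 69 had a higher and 151 a lower interaction of 21787 with total counts. Without the nuclei with most UMIs these were 221 and 258 of 21264.

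Without the block, DESeq2 called 1 member in progenitors, GAPDH, and 1 in the interaction, and no filter on low counts gave 7 and 2. With no such filter 196 of 31187 genes were higher and 74 lower in progenitors. In the interaction 230 of 32517 genes were higher and 284 lower. Each fit with 1 library left out held 1 sample in a group, so nothing is read from its count of members. Without PP121 replicate 1 such fits also called genes outside the module, higher and lower, in neurons and in progenitors. The members were chosen on this contrast. Leaving out 1 library gave 0 in all nuclei, 0 to 10 in neurons (10 without PP121 replicate 1), 0 to 3 in progenitors (3 without PP121 replicate 1) and 0 in the interaction.

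Between replicates, the calls needed the treatment as a term, with 0 in each class without it. Leaving out the nuclei with most UMIs gave 14 in all nuclei, DESeq2 9 in neurons, and progenitor 1 alone 15. Of all genes, 1516 of 23670, 314 of 15477 and 1439 of 16083 were lower in replicate 1 in these fits. Leaving out 1 library, which also dropped that term for want of residual degrees of freedom, gave 0 to 4 in all nuclei, 0 to 1 in neurons and 0 to 11 in progenitors, by library as in the report. In these fits the sign turned in neurons for PFKP and PFKFB3 without PP121 replicate 2, and their log2 fold changes ran from -0.95 to 0.043 and from -0.79 to 0.047.

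Neurons against progenitors went from 0 members at 2-fold to 1 without the nuclei with most UMIs (SLC16A1), 2 with classes from matched profiles, with or without the unannotated nuclei, and 0 to 1 when a library was left out (1 without PP121 replicate 2). Progenitor 1 against progenitor 2 went from 5 to 11 with matched profiles and 12 with the unannotated nuclei too. The summed level kept its direction, at 0.23 to 0.63 on the log2 scale when a library was left out.

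Of 4355 values of single members under alternatives, 3845 kept their side of the threshold, 180 lost the threshold and 312 gained it. A group of 16 with no test moved by more than the spread between replicates, and 2 of called members turned sign. Among these values were 294 sign changes of members called in neither setting. The cause of these changes was not tested. The replicate number and the dated day coincide, and they cannot be told apart from differences between the separate differentiations. PP121 alternatives with the block beyond the block itself, progenitor 1 and 2 taken alone or compared, and sets with unannotated nuclei and matched profiles were chosen after seeing the data.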

Other observations

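Of 10 listed genes for the entry of pyruvate into the mitochondrion and its use there, which include subunits of pyruvate dehydrogenase and its phosphatases, 1 differed between replicates in all nuclei, neurons and progenitors. It was MPC1, a subunit of the mitochondrial pyruvate carrier, and it was higher in replicate 1, with log2 fold changes of 0.69 ± 0.14 (SE, adjusted p = 0.0252) over all nuclei, 0.48 ± 0.15 (SE, adjusted p = 0.0379) in neurons and 1.07 ± 0.21 (SE, adjusted p = 0.00138) in progenitors by edgeR. Its level in progenitors was 32.6, 16.1, 31.6 and 12.3 CPM. Of all genes, 1.75%, 3.68% and 1.41% were higher in replicate 1 in these 3 fits. The median log2 fold change of the 10 genes was 0.17, 0.10 and 0.13, against 0.01, 0.01 and 0.00 over all genes. In the blocked PP121 fit in neurons DLD, a subunit of pyruvate dehydrogenase, and PDP2, a phosphatase that acts on it, were lower, with log2 fold changes of -0.35 and -0.87 (6.86% of all genes lower). They were named after their values were seen, and 0 of 10 were called in progenitors (1 at an unadjusted p under 0.05). Of 7 genes of the pentose phosphate pathway 0 were called between replicates in any class by edgeR, with 1, 1 and 0 at an unadjusted p under 0.05.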
